A study of Mus musculus with 4 samples.

Results

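The promoters of 10 genes of astrocyte function, Glul, Slc1a2, Slc1a3, Aqp4, Gja1, Gjb6, Gfap, Aldh1l1, Sox9 and Aldoc, were examined for histone H3 trimethylated at lysine 4 (H3K4me3) in mouse hippocampus. The genes were taken as a list of well-known astrocyte genes from 21938 protein-coding genes. A gene was called marked where a ChIP-seq peak shared at least 1 bp with the 1 kb on either side of any of its transcription start sites in the GENCODE M21 annotation of build mm10, which all coordinates below follow. Peaks within 1 kb of each other were joined into a domain, whose length in bp is its breadth, and where a gene had more than 1 domain the broadest was used. Hippocampal tissue of male B6CASTF1/J adults aged 2 months, a hybrid of a laboratory and a wild-derived strain, had been frozen before chromatin was prepared. The samples formed pools of 7, of which pool D is biological replicate 1 and pool C is replicate 2, and 2 technical replicate libraries were made from each pool. The 4 libraries shared genotype, sex, age and tissue, and no treatment or second tissue was named. The authors' peak lists comprised 1 for pool D (24690 peaks), 1 for pool C (34193 peaks) and a list of replicated peaks (27063 peaks). The hybrid's alleles were not distinguished, and sequences are those of the reference strain. The depth of sequencing could not be read from the files.

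Astrocytes clear glutamate from the synapse, convert it to glutamine, take up potassium, move water at the vessel wall and join one another through gap junctions into a network. The genes studied encode parts of this machinery and proteins long used to recognise the cell type in brain tissue. H3K4me3 is deposited at the starts of active and poised genes, mostly at CpG-rich promoters, and broad stretches of it have been described at genes that define a cell's identity. In bulk tissue a peak is a mixture over all cells present. Fewer marked astrocytes and less mark per astrocyte cannot be told apart, nor can marking in astrocytes and in other cells.

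All 10 genes were marked in the replicated list, in the pool D list and in the pool C list. Among all protein-coding genes the marked share was 65.5% in the replicated list, 64.3% in pool D and 66.9% in pool C, so a mark as such was common. Most of the domains were long. In the replicated list the median breadth of the 10 was 5935 bp, against 2234 bp over the 14369 marked genes, a ratio of 2.66. In pool D the medians were 5589 and 2034 bp, and in pool C 6310 and 2400 bp. Domains of at least 5 kb were found at 6 of the 10 genes in the replicated list, where 4.56% of all protein-coding genes had one. The count was 5 for pool D (background 3.06%) and 6 in pool C (background 6.34%). In the replicated list all but Aldh1l1 were broader than the median marked gene, and 8 of the 10 exceeded the upper quartile (3137 bp). In pool C all 10 exceeded the median, whereas in pool D 6 did, with Aqp4, Gjb6, Gfap and Aldh1l1 below it. The breadth rested in part on joined peaks. Aldoc reached 5 kb only with a joined peak at the start of the neighbouring gene Pigs, its own replicated peak measuring 3966 bp. With no gap closed the median of the 10 was 3754.5 bp against 2082 bp over all marked genes, and 2 genes, Glul and Slc1a2, reached 5 kb.

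**Figure D1:**
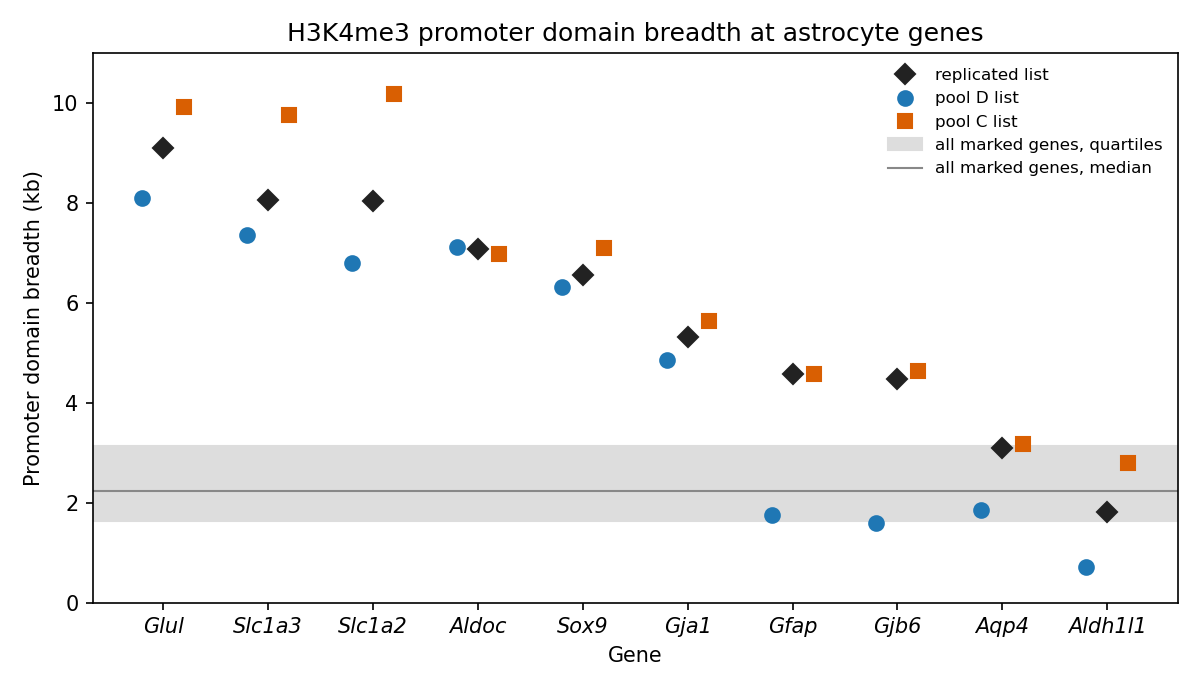
Promoter domain breadth in kb (vertical axis) of each astrocyte gene (horizontal axis) in the replicated, pool D and pool C lists, with the quartiles and median of all marked protein-coding genes in the replicated list as band and line. Glul is broadest at 9103 bp in the replicated list, and Gfap, Gjb6, Aqp4 and Aldh1l1 fall inside or below the band in pool D.

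Most of the domains were broad without having strong peaks. The authors' signal value, an enrichment on a scale set by their peak caller, was used only to rank within a list. For each gene the strongest peak reaching its own promoter window was taken. In the replicated list 9 of the 10 genes lay below the median marked gene by this value (22.5), the exception being Slc1a2 at 23.8. The same was true of 9 of 10 in pool D and 9 of 10 in pool C, where the medians over all marked genes were 18.2 and 27.9. Across the 10 genes the median signal percentile was 18.2 in the replicated list, 15.0 in pool D and 21.9 in pool C. Glul stood at the 99.4th percentile of breadth and the 41.2nd of signal among marked genes. Gfap stood at the 90.6th percentile of breadth and the 3.95th of signal.

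The reference sequence of 7 windows shows what lay under these domains and just beside them. RefSeq promoter windows, from 250 bases before to 50 bases after a start, were matched for 8 of the 10 genes on build GRCm38.p6, the assembly behind mm10. Aqp4 and Sox9 had no entry. Each line runs 5′ to 3′ on the strand of the gene, with CpG dinucleotides in capitals. Glul (chr1:153899679-153899978, plus strand) belongs to the broadest domain of the replicated list, and Slc1a2 is shown at its marked start (chr2:102658409-102658708, plus strand, read from the genome) and at the unmarked internal start of its RefSeq window (chr2:102706188-102706487, plus strand). Slc1a3 (chr15:8710758-8711057, minus strand) holds the most kinds of motif searched. Gfap (chr11:102897151-102897450, minus strand) has its peak just downstream of the window, Aldh1l1 (chr6:90550543-90550842, plus strand) has a gap between peaks inside it, and Aldoc (chr11:78322823-78323122, plus strand) belongs to the gene with the lowest CpG ratio of the 10 over the wider stretch of 500 bp on either side of the start, described further on.
Glul: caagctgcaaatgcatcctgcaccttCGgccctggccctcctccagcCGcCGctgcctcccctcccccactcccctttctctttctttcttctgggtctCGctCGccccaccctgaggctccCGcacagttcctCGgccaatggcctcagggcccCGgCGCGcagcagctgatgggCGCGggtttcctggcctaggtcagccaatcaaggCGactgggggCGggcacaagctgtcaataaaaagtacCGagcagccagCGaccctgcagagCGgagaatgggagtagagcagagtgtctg
Slc1a2, marked start: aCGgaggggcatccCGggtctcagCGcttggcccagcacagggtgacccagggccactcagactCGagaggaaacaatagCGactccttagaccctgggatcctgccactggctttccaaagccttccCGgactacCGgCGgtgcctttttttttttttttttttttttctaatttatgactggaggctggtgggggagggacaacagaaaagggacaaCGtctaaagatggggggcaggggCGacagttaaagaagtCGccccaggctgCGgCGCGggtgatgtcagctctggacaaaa
Slc1a2, internal start: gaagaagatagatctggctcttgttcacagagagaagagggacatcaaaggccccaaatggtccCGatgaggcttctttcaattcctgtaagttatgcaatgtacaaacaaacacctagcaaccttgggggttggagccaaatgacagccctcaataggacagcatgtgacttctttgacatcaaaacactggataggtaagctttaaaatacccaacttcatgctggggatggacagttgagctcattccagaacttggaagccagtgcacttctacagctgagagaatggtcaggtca
Slc1a3: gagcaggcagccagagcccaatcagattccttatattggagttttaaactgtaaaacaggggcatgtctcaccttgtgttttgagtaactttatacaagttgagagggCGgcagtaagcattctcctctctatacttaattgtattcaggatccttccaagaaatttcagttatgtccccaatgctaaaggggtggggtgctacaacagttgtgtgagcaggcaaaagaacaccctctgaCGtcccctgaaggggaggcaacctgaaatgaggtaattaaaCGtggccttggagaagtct
Gfap: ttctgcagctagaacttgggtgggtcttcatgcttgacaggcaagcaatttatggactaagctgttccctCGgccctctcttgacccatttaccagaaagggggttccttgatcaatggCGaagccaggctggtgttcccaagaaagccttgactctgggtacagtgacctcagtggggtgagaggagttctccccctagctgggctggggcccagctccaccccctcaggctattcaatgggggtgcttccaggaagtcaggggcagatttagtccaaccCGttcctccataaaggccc
Aldh1l1: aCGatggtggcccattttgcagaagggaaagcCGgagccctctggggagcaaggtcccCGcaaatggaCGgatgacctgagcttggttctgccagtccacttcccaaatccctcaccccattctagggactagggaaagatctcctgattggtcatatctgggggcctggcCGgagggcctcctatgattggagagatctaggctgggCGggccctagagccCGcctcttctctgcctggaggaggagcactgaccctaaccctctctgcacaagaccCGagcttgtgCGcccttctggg
Aldoc: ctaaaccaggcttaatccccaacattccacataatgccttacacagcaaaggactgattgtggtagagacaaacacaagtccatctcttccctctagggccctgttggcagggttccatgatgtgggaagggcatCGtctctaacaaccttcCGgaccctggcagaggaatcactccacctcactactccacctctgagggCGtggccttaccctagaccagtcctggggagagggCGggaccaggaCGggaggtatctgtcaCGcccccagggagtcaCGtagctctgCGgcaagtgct

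The replicated peaks covered 100% of the Glul, Slc1a3 and Aldoc windows and of the window at the marked start of Slc1a2. They covered 66.3% of the Aldh1l1 window and 0 of the 300 bases of the Gfap window and of the internal Slc1a2 window. The window at the marked Slc1a2 start held 14 CpGs, and the one at the internal start, 47779 bp further into the gene, held 1. The Glul window held 17 CpGs, that of Aldh1l1 9, the Aldoc window shown 8, and those of Slc1a3 and Gfap 3 each.

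Short motifs were searched on both strands of the RefSeq windows of these 8 genes and of all 32851 windows in the table. For Slc1a2 that window is the one at the unmarked internal start, and the window at its marked start was searched separately. The TATA box TATAAA was found in 1 of the 8 genes, Slc1a3, and in 13.6% of all windows. The Slc1a3 match lay at −161 bp from the start of its window's transcript, on the opposite strand. The CCAAT box, searched as CCAAT, was in Glul, Aldh1l1 and Slc1a3 (37.4% of all windows), and the GC box GGGCGG in Glul, Aldh1l1, Slc1a3 and Aldoc (35.7%). The NFI motif TTGGC was in Glul, Aldoc and Slc1a2 (46.7%). In Glul its 2 matches overlap the 2 CCAAT matches on the other strand. The STAT motif TTCNNNGAA was in Gfap, Slc1a3 and a second Aldoc window, not shown (8.30%). The SOX motif AACAAT (10.7%) and the E-box CACGTG (7.15%) matched in none of the RefSeq windows of the 8 genes. The window at the marked Slc1a2 start held TTGGC and AACAAT, once each, and none of the other motifs. These are matches of letters in a short window, and no binding was measured.

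Among the genes that handle glutamate, Glul encodes glutamine synthetase, which turns glutamate and ammonia into glutamine. Its domain had the largest replicated breadth of the group, 9103 bp at chr1:153898779-153907881, with 8093 bp for pool D and 9916 bp for pool C (9004.5 ± 1289 bp, SD, n = 2 pools). It ran from 1165 bp upstream to 7937 bp downstream of the start and covered 80.2% of the gene, whose full length is 9780 bp. A single peak of 8539 bp made up nearly all of it, and its summit lay 180 bp downstream of the start, inside the gene. All 5 annotated starts of Glul lay inside a peak in each of the 3 lists. The domain also held starts of Teddm2 on the opposite strand, 264 bp downstream, and of the microRNA gene Mir8114, at −18 bp, so their marking and that of Glul cannot be told apart.

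Slc1a2 and Slc1a3 encode the main astrocytic glutamate transporters. At Slc1a2 a single replicated peak of 6824 bp lay over the start, at chr2:102658123-102664946. It had almost the same ends in pool D, at 6789 bp, and in pool C, where the peak itself was 6841 bp. The pool C domain nevertheless reached 10175 bp, because 2 weaker peaks followed within 1 kb of each other (8482 ± 2394 bp, SD, n = 2 pools). A second replicated domain of 8032 bp, at chr2:102669436-102677467, lay within the gene, outside the exons of its coding transcripts, around a noncoding start 16825 bp from the first. It was made of 6 weak peaks with signal values from 2.52 to 3.18, below the 10th percentile of the list. In pool D the domain near this noncoding start measured 1131 bp. In the replicated list the second stretch gave Slc1a2 its breadth under the rule, and the domain at the coding start was narrower.

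Slc1a2 has 6 coding starts, and the mark separated them into groups. The first start and one 622 bp after it lay inside the peak in all 3 lists. The other 4, at 47697, 47779, 97248 and 102514 bp into the gene, had their nearest replicated peak 28889 bp or more away. None had a peak within 1 kb in either pool.

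Slc1a3 had a domain of 8050 bp in the replicated list (chr15:8703176-8711225), 7352 bp for pool D and 9752 bp for pool C (8552 ± 1697 bp, SD, n = 2 pools). The peak at the start spanned 4799 bp with a signal of 15.2, and a flatter peak of 2435 bp with a signal of 3.73 followed further into the gene. In pool D the domain was broken into 5 peaks, and in pool C into 3. A separate peak 80978 bp downstream of the start, past the far end of the gene and over 1 kb from any annotated start, had a signal of 13.4, second only to the promoter peak among those listed at Slc1a3. It recurred at 8.73 in pool D and 18.7 in pool C.

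**Figure D2:**
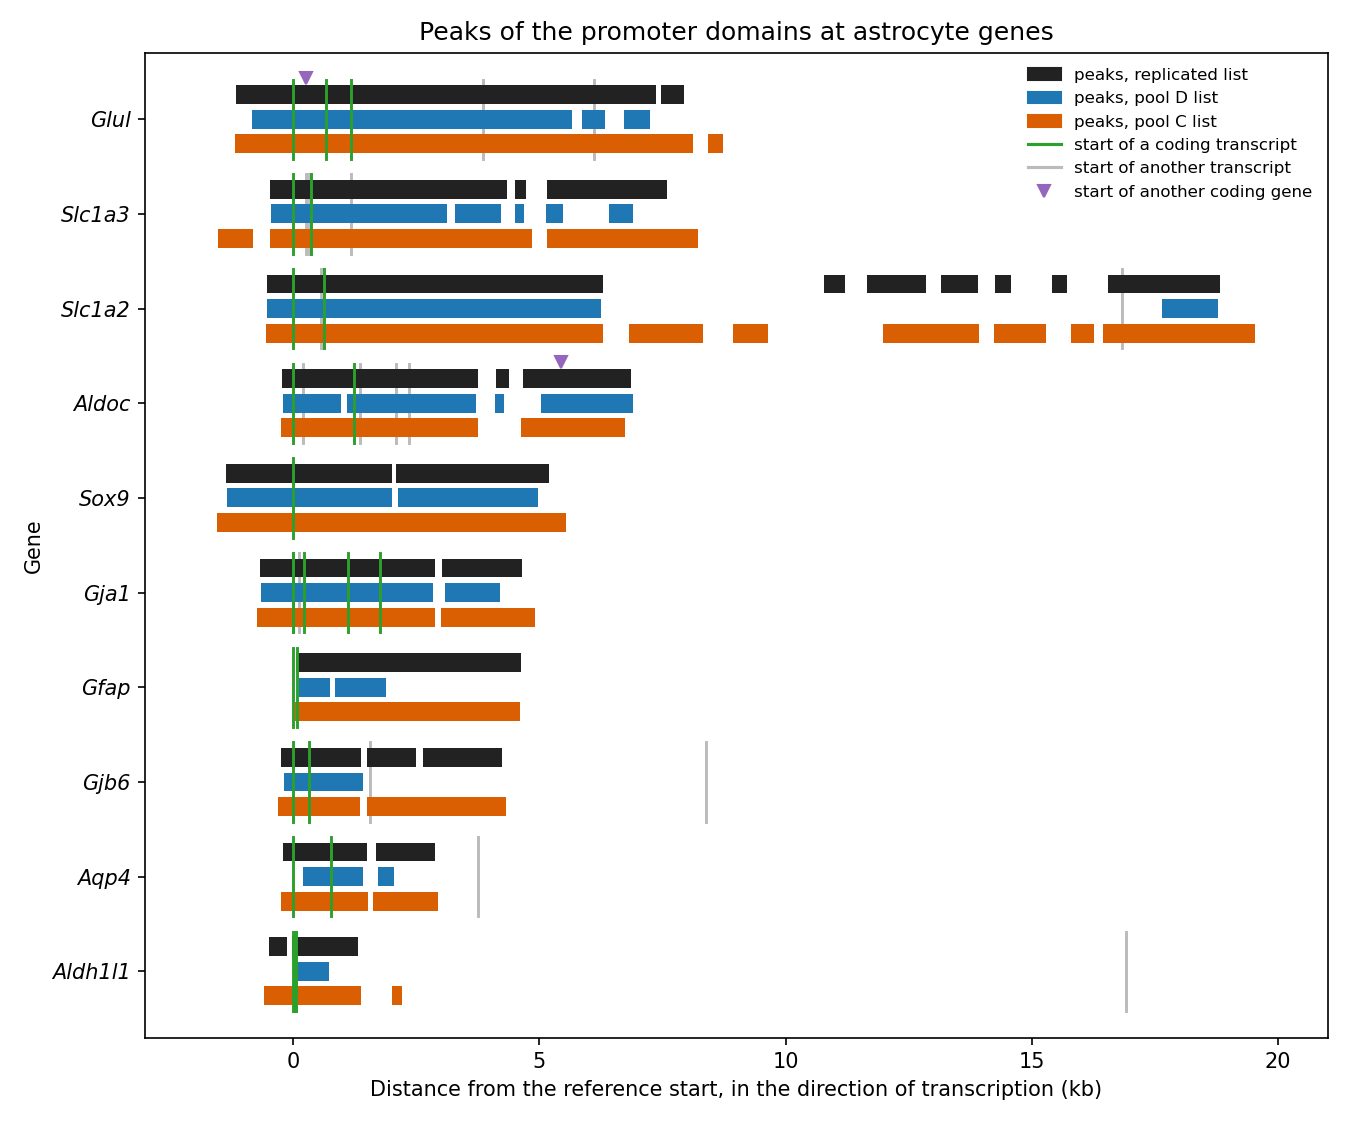
Peaks of the promoter domains of each astrocyte gene in the replicated, pool D and pool C lists, by distance in kb from the reference start (the first marked coding start) in the direction of transcription. Vertical lines are annotated starts of the gene and triangles starts of another protein-coding gene; the peaks extend further to the right of the start than to the left at all 10 genes.

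Aqp4 encodes the water channel of astrocyte endfeet. Its replicated domain was 3085 bp (chr18:15400875-15403959), with 1862 bp for pool D and 3182 bp for pool C (2522 ± 933 bp, SD, n = 2 pools), at the 74.0th percentile of marked genes in the replicated list. The mark lay at starts within the gene and not at its annotated 5′ end. Of its 5 coding starts, the 3 most upstream had no peak within 1 kb in any of the 3 lists. They lay at −7224, −7171 and −4330 bp relative to the first marked coding start. The nearest replicated peak to the annotated 5′ end lay 7023 bp away. The next start lay inside the replicated and pool C peaks, but 192 bp outside the pool D peak, and the last lay inside the peak in all 3. An antisense transcript also starts inside the domain, 671 bp downstream of the reference start.

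Gja1 and Gjb6 encode the main connexins of astrocyte gap junctions. At Gja1 the domain was 5322 bp in the replicated list (chr10:56376664-56381985), 4861 bp for pool D and 5638 bp for pool C (5249.5 ± 549 bp, SD, n = 2 pools). Each list placed a wide peak at the start, of 3501 to 3622 bp, and a lower one behind it. Gjb6 differed more between the pools, at 4471 bp in the replicated list (chr14:57129378-57133848), 1595 bp for pool D and 4632 bp for pool C (3113.5 ± 2147 bp, SD, n = 2 pools). The peak at the start was nearly equal, 1595 bp for pool D and 1668 bp for pool C. The difference lay in the stretch behind it, which pool C called as a peak of 2823 bp. Pool D had 2 peaks within the gene there, the stronger with a signal of 3.12 and 2809 bp from the start, too far away to be joined.

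Gfap, the intermediate filament protein used as the standard astrocyte stain, had a replicated domain of 4571 bp (chr11:102892566-102897136), 1763 bp for pool D and 4568 bp for pool C (3165.5 ± 1983 bp, SD, n = 2 pools). In the replicated list it was the only one of the 10 whose domain lay wholly downstream of its reference start. The near edge was 64 bp into the gene in the replicated list, 123 bp for pool D and 29 bp for pool C. Among all marked genes with a coding start, 709 of 14169 (5.004%) had a domain of this kind. A further coding start, 69 bp downstream, lay inside the peak in the replicated and pool C lists and outside it in pool D. Exons of coding transcripts made up 24.9% of the domain and the rest of the gene 75.1%. The Gfap peak had the lowest signal of the group in the replicated list, 5.05, against 4.71 for pool D and 6.77 for pool C. Its −log10 q was 13.2 in the replicated list, 7.81 in pool D and 23.3 in pool C.

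Aldh1l1, a folate enzyme widely used as a pan-astrocyte marker, was the narrowest of the group in all 3 lists. Its domain was 1805 bp in the replicated list (chr6:90550292-90552096), 722 bp for pool D and 2803 bp for pool C (1762.5 ± 1471 bp, SD, n = 2 pools). It stood at the 32.4th percentile of marked genes in the replicated list, the 4.95th in pool D and the 62.0th in pool C. The mark lay at a cluster of 3 coding starts within 54 bp of each other. The annotated 5′ end, a noncoding start at −64362 bp relative to them, was unmarked, and its nearest replicated peak was 21506 bp away. Peaks covered 1.498% of this long gene, against a median of 6.16% over marked genes.

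Aldoc encodes aldolase C, the brain form of a glycolytic enzyme. Its domain was 7083 bp in the replicated list (chr11:78322752-78329834), 7110 bp for pool D and 6982 bp for pool C (7046 ± 90.5 bp, SD, n = 2 pools), the smallest spread of the group. A large part was not its own. The last peak, 2191 bp wide with a signal of 30.6 (95.5th percentile of all replicated peaks), lay at the start of the neighbouring gene Pigs, 5447 bp downstream. The peak at the Aldoc start was 3966 bp with a signal of 9.65 in the replicated list, and 3997 bp with 13.3 in pool C. In pool D it was split into peaks of 1190 and 2637 bp. The Aldoc peak alone was still wider than the median marked domain.

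Sox9, a transcription factor of the astrocyte lineage, had a domain of 6548 bp in the replicated list (chr11:112780870-112787417), 6317 bp for pool D and 7095 bp for pool C (6706 ± 550 bp, SD, n = 2 pools). It covered 92.2% of the gene, the highest share of the 10, and in pool C a single peak covered 100% of it. Exons made up 57.9% of the domain. The noncoding transcript BC006965 starts on the opposite strand, at −248 bp and inside the domain. A separate peak 29335 bp downstream of the Sox9 start, away from any annotated start, had a signal of 5.85 and recurred at 4.87 in pool D and 7.56 in pool C.

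The order of breadth in the replicated list was Glul, Slc1a3, Slc1a2, Aldoc, Sox9, Gja1, Gfap, Gjb6, Aqp4 and Aldh1l1. The place of Slc1a2 is that of its weak internal domain, and its domain at the start, 6824 bp, would stand between Aldoc and Sox9. Gfap and Gjb6 differed by less than either gene's SD over the pools. Glul and Slc1a3 overlapped, since the pool C value of Slc1a3 exceeded the pool D value of Glul. In pool C Slc1a2 (10175 bp) stood above Glul (9916 bp). These differences between genes were not tested.

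The domains reached into the gene rather than away from it. All 10 extended further downstream than upstream of the reference start, as did 84.4% of the 14169 marked genes with a coding start. The excess over other genes lay downstream. There the median reach was 4924 bp, from 1307 bp at Aldh1l1 to 7937 bp at Glul, against 1400 bp over all such genes. Upstream the median was 479 bp in the group and 638 bp over all. The domains were also more often in pieces, with a median of 2 peaks against 1. A domain of 1 peak was found at Slc1a2 and Gfap only, 2 of the 10, against 82.0% of all such genes.

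Of the 31 coding starts of the 10 genes, 23 (74.2%) lay inside a replicated peak, against 57.6% of 54361 coding starts in all. In pool D the count was 20 and in pool C 23. Starts of 1 gene share its domain and are not independent. The coding starts more than 1 kb from a replicated peak numbered 7, and they belonged to Slc1a2 and Aqp4.

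**Figure D3:**
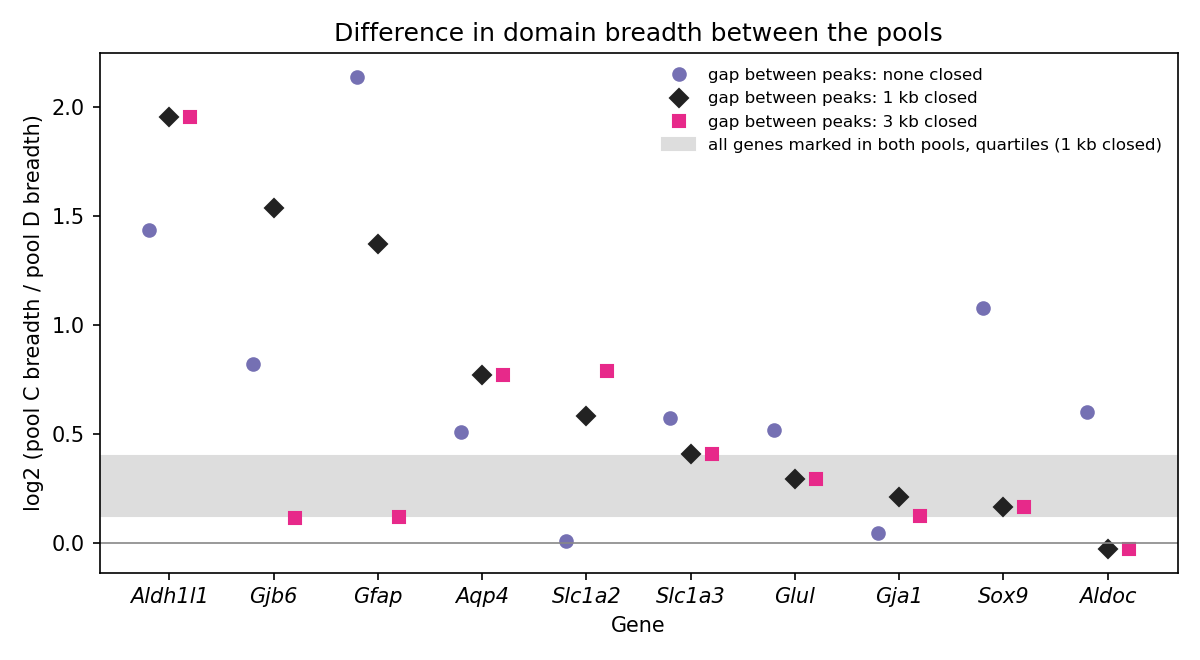
Difference in domain breadth between the pools, as log2 of pool C breadth over pool D breadth (vertical axis), for each astrocyte gene with no gap, 1 kb or 3 kb closed between peaks; the band gives the quartiles over all genes marked in both pools at 1 kb. When 3 kb gaps are closed, Gjb6 and Gfap fall to the lower edge of the band and Aldh1l1 stays where it was.

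Pool C gave broader domains than pool D at 9 of the 10 genes, and at 96.8% of the 14098 genes marked in both pools, so the direction was general. The size of the difference varied within the group. As log2 of the pool C over the pool D breadth, the median over all genes was 0.23 with quartiles of 0.13 and 0.40. Glul (0.29), Gja1 (0.21) and Sox9 (0.17) lay within these quartiles, Slc1a3 (0.41) and Slc1a2 (0.58) above them, and Aldoc (−0.03) below. The far edge of the Aldoc domain is that of the Pigs peak. With only the peaks that reach its own window, Aldoc measured 3929 bp for pool D and 3997 bp for pool C.

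A few genes lay far out. Aldh1l1 was 3.88 times as broad in pool C, at the 99.4th percentile of all genes' ratios. Gjb6 was 2.90 times as broad (98.7th percentile), Gfap 2.59 times (98.1st) and Aqp4 1.71 times (92.4th). These are 4 of the 5 members with the lowest signal in the replicated list, the fifth being Aldoc. Every base of the pool D domain lay inside the pool C domain at 9 of the 10 genes, and 97.7% of it at Aldoc. With gaps of up to 3 kb closed, Gjb6 measured 4272 bp for pool D and 4632 bp for pool C, and Gfap 4200 and 4568 bp. The ratios then were 1.08 and 1.09, with the closed gaps counted as breadth. Peaks of pool D thus reached nearly as far at these genes, with uncalled stretches between them. Aldh1l1 kept 722 and 2803 bp, and Aqp4 1862 and 3182 bp, with that gap. The pool C list held more peaks in all than the pool D list, and the part of this in these differences was not tested.

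The promoters ranged from CpG-rich to CpG-poor. The ratio of observed to expected CpG within 500 bp of the reference start was 0.812 at Slc1a2, 0.796 at Sox9 and 0.696 at Glul. It was 0.554 at Slc1a3, 0.476 at Gja1 and at Gjb6, and 0.422 at Gfap. The lowest were Aldh1l1 (0.341), Aqp4 (0.288) and Aldoc (0.228). The median was 0.724 over 14169 marked genes and 0.173 over 7684 unmarked genes, so 8 of the 10 lay below the marked median and all 10 above the unmarked one. Aldoc, at the 2.39th percentile of marked genes by this ratio, had a domain at the 98.1st percentile of breadth, although this includes the Pigs peak.

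**Figure D4:**
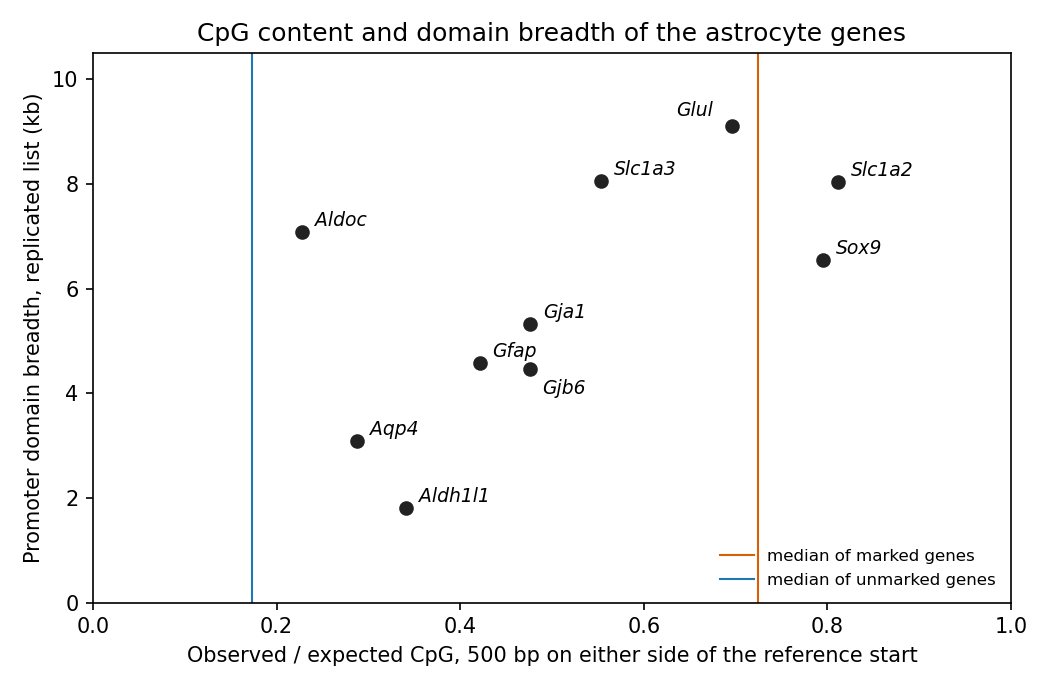
Promoter domain breadth in kb in the replicated list (vertical axis) against the ratio of observed to expected CpG within 500 bp of the reference start (horizontal axis), 1 point per astrocyte gene. Only Slc1a2 and Sox9 lie to the right of the median of marked genes (0.724), and all 10 lie to the right of that of unmarked genes (0.173). Slc1a2 is drawn at 8032 bp, the breadth of its weak internal domain, whereas the domain at its reference start was 6824 bp.

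In the replicated list Slc1a2, Slc1a3, Gja1, Gjb6 and Aldh1l1 each carried a broader domain than every listed relative outside the group. In pool D this did not hold for Gjb6 and Aldh1l1. Beside Slc1a2 and Slc1a3, the other glutamate and neutral amino acid transporters of the family measured 4003 bp (Slc1a1), 3778 bp (Slc1a4), 1800 bp (Slc1a5) and 1624 bp (Slc1a6) in the replicated list, and Slc1a7 was unmarked. Of 11 other aquaporin genes only Aqp11 (3715 bp), Aqp3 (497 bp) and Aqp5 (299 bp) were marked. Aqp11 therefore exceeded Aqp4, and the choroid plexus channel gene Aqp1 had no peak in any of the 3 lists. Of 18 other connexin genes 11 were marked, the broadest being Gjc1 at 2813 bp, below Gja1 and Gjb6 in the replicated list. In pool D Gjc1 (2469 bp) lay above Gjb6 (1595 bp) and below Gja1 (4861 bp). Gjb2, the neighbour of Gjb6 on the chromosome, measured 1544 bp.

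Gfap and Sox9 were not the broadest of their families. Of 9 other intermediate filament genes, 8 were marked. The neuronal Nefm (7259 bp) and Ina (6584 bp) exceeded Gfap, whereas Vim, which astrocytes also express, measured 3645 bp and Des was unmarked. In pool D Vim (3195 bp) also exceeded Gfap (1763 bp). In the replicated list Aldh1l1 was broader than all 6 related ALDH1 genes, of which Aldh1l2 had the broadest at 1202 bp and Aldh1a1 and Aldh1a7 were unmarked. In pool D Aldh1l1 (722 bp) was narrower than Aldh1l2 (1143 bp), Aldh1b1 (968 bp) and Aldh1a3 (947 bp). Sox9 lay between the related Sox8 (7699 bp) and Sox10 (4452 bp), a factor of oligodendrocytes. Aldoa, the aldolase of most tissues, measured 4738 bp, below the Aldoc domain with its Pigs peak and above the Aldoc peak alone (3966 bp).

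**Figure D5:**
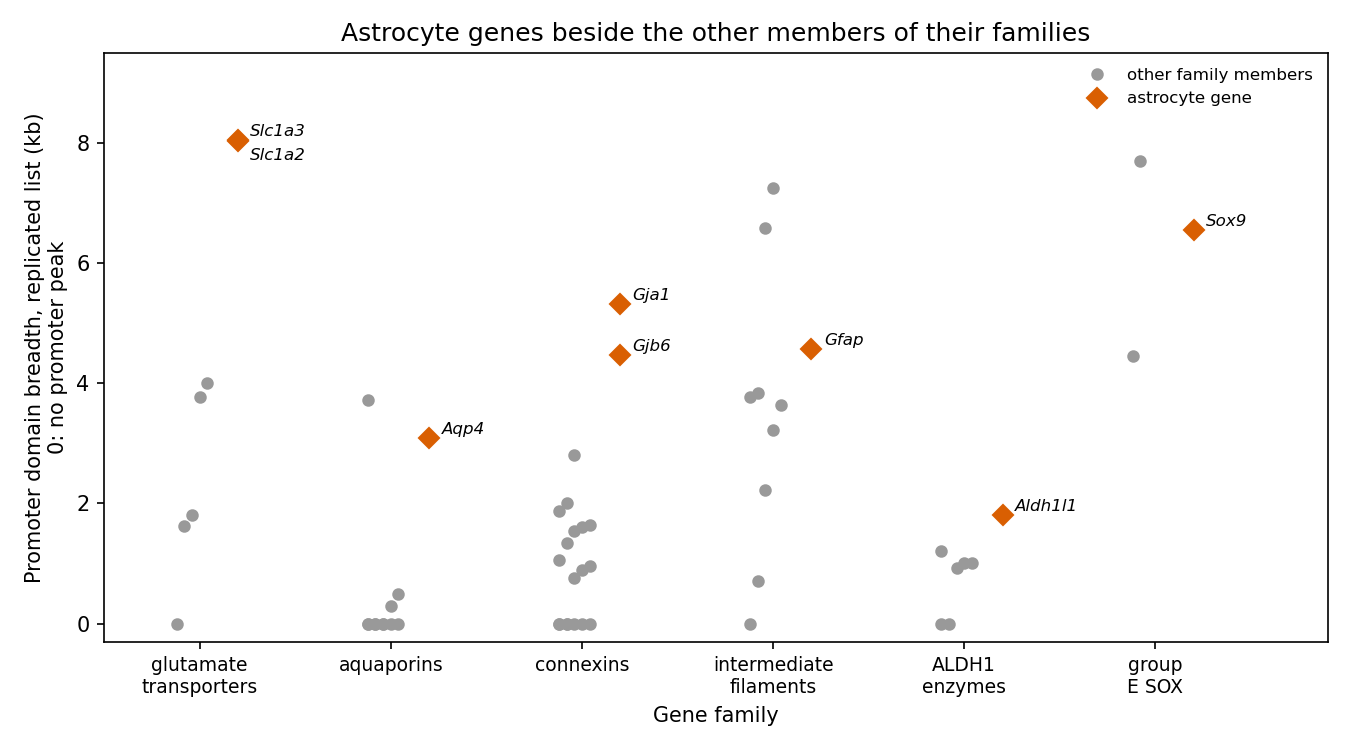
Promoter domain breadth in kb in the replicated list (vertical axis, 0 for no promoter peak) of the astrocyte genes beside the other members of 6 gene families (horizontal axis). The transporters Slc1a2 and Slc1a3, near 8 kb, stand above their relatives, whereas Gfap, Aqp4 and Sox9 each have a relative with a broader domain.

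Other genes of astrocyte physiology were also marked nearly throughout. Of 21 further astrocyte markers all 21 were marked in the replicated list and in pool C and 20 in pool D, with a median of 4245 bp in the replicated list. Sparcl1 (6931 bp) and Fgfr3 (6807 bp) were broadest. Lcat (604 bp) and S100b (1867 bp) were narrowest, below the 2234 bp median over all marked genes. The list holds more markers than the written plan named. Of 12 other genes of the glutamate and glutamine cycle 11 were marked, with a median of 4196 bp. The vesicular transporter gene Slc17a7 of excitatory neurons (8636 bp) and the aminotransferase gene Got1 (6359 bp) were broadest, and Slc17a8 was unmarked. All 13 genes of water and potassium handling were marked, with a median of 3436 bp, among them the cotransporter gene Slc12a2 (5079 bp).

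Genes of astrocyte energy metabolism, 13 of 13 marked, had a median of 3589 bp, with the glycogen regulator Ppp1r3c (5906 bp) and the lactate dehydrogenase gene Ldhb (5064 bp) broadest. The 16 genes listed as astrocyte transcription factors, all marked, had a median of 6800 bp, above that of the 10 genes. Nfib (22643 bp) and Nfia (19240 bp) led them. The list also holds Lhx2, a gene of the cortical and hippocampal primordium, and is not particular to astrocytes. These medians stood beside 2234 bp over all marked genes, and a few genes belong to more than 1 of these lists.

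As a check of the tissue, markers of several cell types were read in the same lists. All 6 neuron markers were marked in every list, with a replicated median of 6775.5 bp, as were all 5 endothelial markers (4543 bp). In pool D these medians were 5564 and 1576 bp, against 2034 bp over all marked genes. Of 5 oligodendrocyte markers all were marked in the replicated list and in pool C, and 4 in pool D. Their median was 2589 bp in the replicated list and 1587.5 bp in pool D. Microglial markers, 5 in number, were all marked in pool C, while pool D marked 0 and the replicated list 2. Of 5 markers of ependyma and choroid plexus only Foxj1 was marked in each list, and the others, among them Aqp1 and Ccdc153, were not. The part of these cells in the domains of the 10 genes was not tested.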

How the data were processed

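H3K4me3 ChIP-seq was read from peak lists for 2 pools of hippocampal tissue. Per the labels and per-library notes, the authors deposited 1 list for pool D, 1 for pool C, 1 on both pools together and 1 of replicated peaks, on build mm10, with a control alignment. The technical replicates of each pool were combined in 1 alignment. Which caller was used is not given in the sources used here. Every peak has a position, a signal value (a score on the caller's scale) and a −log10 q value, all as deposited by the authors. No counts were used, and depth is unknown.

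Peaks were set against GENCODE M21 starts and the GRCm38.p6 genome (Python 3.11.15, numpy 2.4.6, pysam 0.24.0, samtools 1.23.1, matplotlib 3.10.9). All 117247 peaks of the 4 lists lay within the 21 chromosomes. A gene was marked where a peak shared at least 1 bp with 1 kb on either side of a start, and peaks within 1 kb were joined. A percentile is the share of marked protein-coding genes, or of peaks of the list, with a lower value. The joining of peaks was tested on simulated data. With 1 list per pool no test was run, and mean ± SD is over 2 pools.

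The members and gene lists were chosen with earlier results of these data known. The text names all 10 genes, from each list the 2 broadest and the first 2 unmarked by symbol, any gene of the related families, and genes whose starts lie in a domain; some items taken by this rule are left out. It also names the 3 genes nearest in log2 breadth over the 3 lists to the broadest and to the narrowest member. Of the further astrocyte markers the 2 narrowest are named too. Alternatives were other windows, gaps, thresholds, start sites, peak lists and rules of overlap.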

Additional observations from a re-analysis of the deposited data

How the results depend on the processing

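The marking of the 10 genes depended on which starts were counted, and their breadth on whether gaps were closed. All 10 stayed marked except when the gene's 5′ end was the sole start (7, without Aqp4, Gfap and Aldh1l1) or with the peak centre required inside the window (9, without Gfap). The median breadth of 5935 bp became 5060.5 bp with −log10 q of at least 5, 3754.5 bp with no gap closed, 6824 bp at the 5′ end alone and 6548 bp with the peak centre rule. It was 3754.5 bp with only peaks that reach the gene's own window, a rule chosen after seeing the data. Against all marked genes under the same rule, the ratio of 2.66 became 1.80 with no gap closed, 1.72 with own peaks only and 2.28 at the stricter q. The 6 domains of at least 5 kb became 2 with no gap closed and 2 with own peaks only, where the background was 2.68% and 3.32%. Using 1 pool alone, the number marked was 10 and 10, the median 5589 (pool D) to 6310 bp (pool C) and the count of at least 5 kb 5 to 6. Broader domains in pool C were found at 5 of the 6 genes marked in both pools under the peak centre rule. They were found at all 10 with no gap closed, at the stricter q and with own peaks only. Among the breadths of single genes, 18 of 116 alternative values moved by over 1 SD of that gene's pools, among them Slc1a2 at 19345 bp with 3 kb gaps closed, where its domains joined, and Aldoc at 3966 bp with no gap closed, without the Pigs peak. No paired analysis was possible because the numbers shared across the pools are those of technical replicates, which each pool combined in 1 list.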

Other observations

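The genes most like the ends of the group were found by the distance between log2 breadths in the replicated, pool D and pool C lists, over 14097 other protein-coding genes. Nearest to Glul was Teddm2, at a distance of 0, which shares its domain. Next came Trim9, a ubiquitin ligase gene (distance 0.063), with 8952, 8411 and 10038 bp in the replicated, pool D and pool C lists. Lhx2, a transcription factor gene of the cortical and hippocampal primordium, followed (0.093) with 9635, 7899 and 9729 bp.

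Nearest to Aldh1l1 was Slc14a1, a urea transporter gene (distance 0.267), with 1998 bp in the replicated list, 743 bp for pool D and 2408 bp for pool C. Tmc8 (0.291) had 2005, 649 and 2449 bp. Axl, a receptor tyrosine kinase gene (0.323), had 1791, 683 and 2257 bp. Each of these genes was, like Aldh1l1, under 1 kb in pool D and over 2 kb in pool C, which follows from choosing them by these breadths.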
